A study of Mus musculus with 6 samples.

Results

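Genes for the translation initiation factors of the mouse were followed in ovarian tumours treated with RU486 or placebo. Members were chosen by name, as every probe whose platform gene symbol begins with Eif and a digit 1 to 6, with the Eif2ak kinases left out. The rule found 49 genes on 59 probes, of 21878 named genes in all. RU486, also called mifepristone, is a steroid antagonist of the progesterone receptor and of the glucocorticoid receptor. The groups were 3 arrays of tumours from mice with an RU486 pellet and 3 arrays of tumours from mice with a placebo pellet, in place for 24 h, in tumours 0.5 to 1 cm across. All 6 samples carry the genotype that the labels write as Pgrcre/+mPgrLsL/+ and the design text as Pgrcre/+PgrBLsL/+, in which Cre is made from the Pgr locus and releases a transgene for the B form of the progesterone receptor, PGR-B, in cells that use that locus. No group without the transgene was compared, and ages were not given in the sources used here. Titles number the samples 1 to 3 in each group, while the source names of all 3 end in replicate 1. Whether the 3 arrays of a group come from 3 tumours or 3 mice is not stated in the labels, and p-values therefore measure only the spread between these samples, which may be technical.

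Initiation factors load the small ribosomal subunit onto a messenger RNA and place the initiator tRNA at its start codon. The factor eIF2 carries that tRNA with GTP, and eIF2B recharges eIF2 with GTP after each round. eIF3 is a large complex on the small subunit, eIF4E binds the cap, eIF4G is its scaffold and eIF4A the helicase. Supply of active eIF2 is cut when its alpha subunit is phosphorylated, and eIF4E is held by the 4E binding proteins until mTORC1 phosphorylates them. Growing and dividing cells, tumour cells among them, are known for high use of these factors.

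The deposited values are scores: each probe was centred and scaled over the 6 arrays, to a mean of 0 and an SD of 1. A difference below is the RU486 mean score minus the placebo mean score, in SDs of a probe, averaged where a gene has several probes, and with all 6 arrays its size has a ceiling of 1.83. Fold changes cannot be had from such values, and no gene's level can be set against another gene's. The direction of the scale is not stated, and a higher score is read here as more signal. Presence of a transcript cannot be read from scores, so the ovarian label could not be checked against levels of its markers. In bulk tumour RNA, fewer cells of a type and less RNA per cell cannot be told apart.

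Across the 49 genes, scores leaned lower in RU486 tumours, and no single gene passed a test over all genes. Lowest by group median were the genes of eIF1, eIF1A and start-site selection and those of eIF2B. Of the 49, 0 passed an adjusted p of 0.05 in limma (ordinary statistic, Benjamini-Hochberg over 21878 genes), where 0.00457% of all genes did. At an unadjusted p of 0.05, 7 of 49 (14.3%) were lower, beside 7.08% of all genes, and 1 of 49 (2.04%) was higher, beside 5.24%. Every RU486 array lay below every placebo array in 8 genes (16.3%), beside 10.8% of all genes. The 3 RU486 arrays lay above the 3 placebo arrays in 2 genes (4.08%), beside 11.2%. Differences were below 0 in 37 genes (75.5%), beside 51.6% of all genes. The median difference was -0.43 for the 49 genes, with quartiles of -1.08 and 0.00, and -0.06 for all genes. With arrays centred on their median 6 genes were lower and 0 higher at that unadjusted p, beside 6.69% and 3.43% of all genes. Then 33 differences (67.3%) were below 0, beside 46.5% of all genes. With quantile normalization these counts were 8, 0 and 35, beside 7.35%, 3.12% and 49.9% of all genes. The genes behind these counts changed with the setting. Of the 8 genes called at that unadjusted p, Eif2b2, Eif2s2 and Eif2b1 kept the call in all 13 other fits (other scalings, uses of probes and left-out arrays). With centring and with quantile normalization, Eif1a, Eif4e3, Eif4ebp2 and Eif2s3y lost it and Eif1ax and Eif1b gained it. With 1 array left out, Eif4e3 lost the call in 6 of 6 fits, and Eif1a, Eif2s3x, Eif4ebp2 and Eif2s3y each lost it in 5 of 6. Such fits rest on fewer arrays, and some calls were lost though the difference grew. Without RU486 array 1, Eif4e3 stood at -1.78, against -1.52 with all 6 arrays.

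That lean was uneven between arrays. Member medians were -0.24, 0.399 and -0.819 in RU486 arrays 1 to 3, against -0.356, 0.344 and 0.849 in placebo arrays 1 to 3. Medians of all genes were -0.457, 0.0435 and -0.185 in RU486 arrays 1 to 3, against -0.409, 0.0305 and 0.286 in placebo arrays 1 to 3. RU486 array 3 therefore stood low for these genes and placebo array 3 high, while the medians of the other 4 arrays interleaved. The lowest score of a member fell on RU486 array 3 in 23 of 49 genes (46.9%), beside 14.4% of all genes. Without RU486 array 3, differences were below 0 in 25 of 49 genes (51.0%), beside 50.5% of all genes, and the median was -0.08, beside -0.02. Without placebo array 3 the median was -0.15, beside 0.20 for all genes. It was -0.89, beside -0.36, when RU486 array 2 was left out, and -0.88, beside -0.31, when placebo array 1 was.

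The counts moved with single arrays as well. At an unadjusted p of 0.05, 4 members were lower when RU486 array 1 was left out (4.59% of all genes) and 4 when RU486 array 3 was (5.29%). Leaving out placebo array 2 gave 3 members (5.52%), and placebo array 3 gave 4 (5.17%). Groups apart in the lower direction numbered 17 without RU486 array 2 (20.4% of all genes) and 18 without placebo array 1 (22.3%). In the higher direction there were 6 without RU486 array 3 (14.9% of all genes). Eif3e was then the 1 gene higher at the unadjusted threshold, beside 2.64% of all genes.

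**Figure D1:**
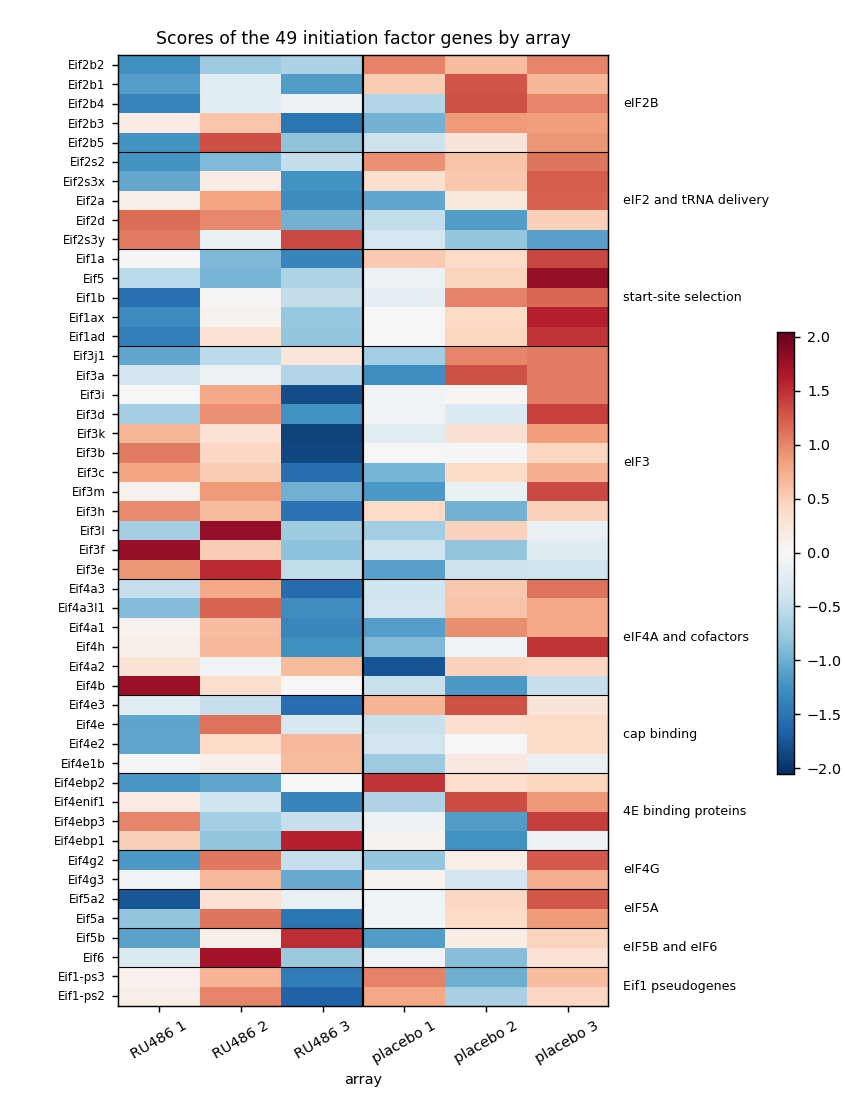
Score of each of the 49 genes (down the page, by role) on each array (across, RU486 left of placebo), as SDs of a probe, red above and blue below the gene's mean. RU486 array 3 is the bluest column, with the lowest score of 23 genes, and placebo array 3 the reddest, with the highest score of 19.

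Among the genes of eIF2B, the exchange factor that recharges eIF2, all 5 had differences below 0, with a median of -1.14. Eif2b2 (Entrez gene 217715, chromosome 12), the beta subunit, scored -1.26, -0.748 and -0.647 in RU486 arrays 1 to 3, against 1.02, 0.628 and 1.0 in placebo arrays 1 to 3. Its groups lie wide apart, and the difference of -1.77 (SE 0.228, limma adjusted p = 0.23, unadjusted p = 0.0015) was the largest in size among the members. Eif2b1 (Entrez gene 209354, chromosome 5), the alpha subunit, part of the regulatory core that senses phosphorylated eIF2, scored -1.13, -0.216 and -1.14 in RU486 arrays, against 0.513, 1.29 and 0.676 in placebo arrays. RU486 array 2 came nearest to the placebo arrays, and the difference was -1.65 (SE 0.387, adjusted p = 0.332). The delta subunit gene Eif2b4 stood at -1.14 (SE 0.713), and placebo array 1, at -0.593, lay within its RU486 scores. The gamma and epsilon subunit genes, Eif2b3 at -0.50 (SE 0.878) and Eif2b5 at -0.48 (SE 0.881), together form the catalytic part, and their groups overlapped. Thus 2 of 5 subunit genes had groups apart, both lower, beside 10.8% of all genes in that direction, and 3 did not.

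In eIF2 itself, the beta subunit gene Eif2s2 (Entrez gene 67204, chromosome 2) scored -1.23, -0.901 and -0.49 in RU486 arrays 1 to 3, against 0.934, 0.583 and 1.1 in placebo arrays 1 to 3. No array came close to the other group, and the difference was -1.75 (SE 0.264, adjusted p = 0.247, unadjusted p = 0.00269). The gamma subunit has a copy on each sex chromosome in the mouse. For the X copy, Eif2s3x (Entrez gene 26905), the mean of its 2 probes was -1.05, 0.147 and -1.22 in RU486 arrays, against 0.328, 0.558 and 1.24 in placebo arrays, a difference of -1.42 (SE 0.51, adjusted p = 0.39). The groups were apart at 1 probe (-1.55) and overlapped at the other (-1.28). The Y copy, Eif2s3y (Entrez gene 26908), scored 1.07, -0.16 and 1.35 in RU486 arrays, against -0.356, -0.785 and -1.12 in placebo arrays, a difference of 1.51 (SE 0.514, adjusted p = 0.39). It was the 1 member higher at an unadjusted p of 0.05. These are tumours of the ovary, and a scaled score has an SD of 1 whether or not a probe is above background, so nothing is said here of Y-linked expression. Without Eif2s3y, 0 of the other 48 genes were higher at that threshold. Initiator tRNA can also be brought by the products of Eif2a and Eif2d, which are not subunits of eIF2, and these stood at -0.24 (SE 0.905) and 0.77 (SE 0.826) with overlapping groups.

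Promoter windows of the 3 members with the smallest unadjusted p, and of Eif4b, whose 3 RU486 scores were all above its placebo scores, are printed to show the letters at genes whose differences had opposite signs. Each runs from 250 bases before to 50 after the RefSeq start, in the gene's direction, on build GRCm38.p6. They lie at chr12:85219231-85219530 (plus strand) for Eif2b2, chr2:154892857-154893156 (minus strand) for Eif2s2, chr5:124579082-124579381 (minus strand) for Eif2b1 and chr15:102073523-102073822 (plus strand) for Eif4b. Capitals mark matches on either strand to 4 motifs: CACGTG, the E-box that MYC binds, CCGGAAG, the core bound by ETS factors, GGGCGG, the GC box, and CCAAT.
Eif2b2: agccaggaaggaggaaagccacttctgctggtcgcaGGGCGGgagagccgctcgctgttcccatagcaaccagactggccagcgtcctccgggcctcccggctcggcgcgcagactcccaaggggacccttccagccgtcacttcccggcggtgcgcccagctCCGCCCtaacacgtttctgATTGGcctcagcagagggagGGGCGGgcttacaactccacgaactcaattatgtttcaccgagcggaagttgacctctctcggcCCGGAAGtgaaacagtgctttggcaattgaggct
Eif2s2: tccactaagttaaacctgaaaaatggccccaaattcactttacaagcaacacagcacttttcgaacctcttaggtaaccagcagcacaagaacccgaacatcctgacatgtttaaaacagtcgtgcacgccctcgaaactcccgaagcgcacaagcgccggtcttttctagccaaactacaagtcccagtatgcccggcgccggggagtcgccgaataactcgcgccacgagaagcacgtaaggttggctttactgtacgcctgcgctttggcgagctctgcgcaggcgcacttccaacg
Eif2b1: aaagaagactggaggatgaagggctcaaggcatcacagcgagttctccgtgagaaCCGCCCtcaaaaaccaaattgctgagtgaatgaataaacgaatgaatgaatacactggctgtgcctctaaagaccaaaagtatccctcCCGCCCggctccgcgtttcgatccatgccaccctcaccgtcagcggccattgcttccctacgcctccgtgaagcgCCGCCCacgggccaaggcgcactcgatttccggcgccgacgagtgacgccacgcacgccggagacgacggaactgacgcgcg
Eif4b: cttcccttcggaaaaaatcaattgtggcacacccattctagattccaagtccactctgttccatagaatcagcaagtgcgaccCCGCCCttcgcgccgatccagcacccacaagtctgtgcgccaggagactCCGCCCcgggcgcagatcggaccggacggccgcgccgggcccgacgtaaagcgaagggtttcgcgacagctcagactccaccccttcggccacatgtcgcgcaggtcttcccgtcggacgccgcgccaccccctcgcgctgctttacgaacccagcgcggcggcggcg

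Eif2b2 held 5 matches, namely 3 GC boxes, 1 CCAAT and 1 ETS core. Eif2b1 held 3 GC boxes, Eif4b held 2, and Eif2s2 held 0 matches, and 0 pairs of matches overlapped in these windows. RefSeq windows were matched by Entrez gene for 36 of the 49 members, some with several starts, and a gene was counted if any of its windows held the motif. The E-box was found in 9 of 36 (25%), among them Eif4e, Eif4a1, Eif5a and Eif3f, beside 8.09% of all 27025 genes with a window and 8.91% of protein-coding genes. The ETS core was in 14 of 36 (38.9%), beside 9.93% of all and 12.9% of protein-coding genes. The GC box was in 28 (77.8%), beside 38.2% and 49.2%, and CCAAT in 13 (36.1%), beside 41.1% and 42.3%. Median differences with and without a match were -0.62 and -0.65 for the E-box, -1.08 and -0.36 for the ETS core, -0.77 and -0.38 for the GC box, and -0.65 and -0.32 for CCAAT. Members with groups apart were 0 of 9 with an E-box, against 6 lower and 2 higher of 27 without, beside 10.8% lower and 11.2% higher of all genes. They were 2 lower of 14 with an ETS core, against 4 lower and 2 higher of 22 without. For the GC box they were 5 lower and 2 higher of 28, against 1 lower of 8, and for CCAAT 2 lower of 13, against 4 lower and 2 higher of 23. The motifs were picked with these results known, the shares carry no test, and a match is a run of letters, not a binding site.

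The genes of eIF1, eIF1A and start-site selection leaned furthest as a group, with 5 of 5 differences below 0, between -1.53 and -1.28. Placebo array 3 was the highest of the 6 in each of the 5. Group mean scores were -0.96, -0.30 and -0.81 in RU486 arrays 1 to 3, against 0.05, 0.54 and 1.48 in placebo arrays 1 to 3. Without placebo array 3 the 5 differences lay between -1.23 and -0.87. Eif1a (Entrez gene 13664), an autosomal gene for eIF1A, which holds the scanning complex open, scored -0.0285, -0.919 and -1.35 in RU486 arrays 1 to 3, against 0.531, 0.394 and 1.37 in placebo arrays 1 to 3. Its groups were apart, with a difference of -1.53 (SE 0.496, adjusted p = 0.39). Eif5 (Entrez gene 217869, chromosome 12), which makes eIF2 split its GTP once the start codon is met, scored -0.552, -0.947 and -0.63 in RU486 arrays, against -0.115, 0.462 and 1.78 in placebo arrays. The RU486 scores lay close together and placebo array 3 stood far above, which gave -1.42 (SE 0.574, adjusted p = 0.395, unadjusted p = 0.0689). Eif1ad, placed in this group for the eIF1A-like domain in its name, stood at -1.28 (SE 0.652), and a part in start-site selection was not tested. Eif1ax, the X-linked eIF1A gene, stood at -1.33 (SE 0.624) and Eif1b, a close relative of eIF1, at -1.34 (SE 0.623). In each of these 3 genes RU486 array 2 lay above placebo array 1, and RU486 array 1 was the lowest of the 6. Eif1a and Eif1ax code for near-identical proteins, and probes of such copies may share signal, which was not tested. The Eif1 pseudogenes Eif1-ps2 and Eif1-ps3 stood at -0.37 (SE 0.894) and -0.43 (SE 0.887). Eif1 itself, Eif2s1, Eif3g and Eif4g1 were not analysed here.

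**Figure D2:**
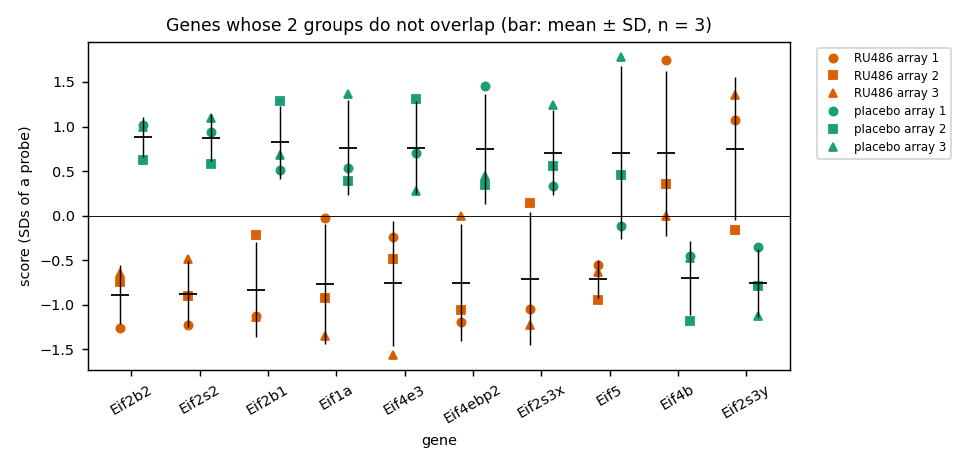
Scores (SDs of a probe) on each array for the 10 genes whose groups do not overlap, with RU486 left of placebo for each gene, a symbol for each array and bars for the mean ± SD of 3 arrays. Eif2b2 and Eif2s2 have the widest gaps, and Eif4b and Eif2s3y alone among the 10 have RU486 above placebo.

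eIF3 genes had differences of both signs, with 8 of 12 subunit genes below 0, 4 above and a median of -0.20. Of the 8, Eif3c and Eif3m turned above 0 with arrays centred on their median. Groups were apart in 0 of the 12, beside 10.8% lower and 11.2% higher of all genes. An unadjusted p under 0.05 was reached by 0, beside 7.08% lower and 5.24% higher. Mean scores of the 12 genes were 0.29, 0.64 and -1.11 in RU486 arrays 1 to 3, against -0.52, 0.07 and 0.64 in placebo arrays 1 to 3. RU486 array 3 was the lowest of the 6 in 8 of 12 genes (66.7%), and RU486 array 1 or 2 the highest in 6. Eif3b, a core subunit gene, scored 1.06, 0.418 and -1.87 in RU486 arrays, against -0.00331, -0.0378 and 0.436 in placebo arrays. The RU486 arrays thus took both the highest and the lowest place. Eif3k, a peripheral subunit gene, had -1.89 on RU486 array 3, the lowest score of any member on any array, and 0.674 on RU486 array 1.

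The largest subunit gene, Eif3a, stood at -0.73 (SE 0.837). It was -1.55 without placebo array 1 (unadjusted p = 0.00424 in limma) and -0.26 without placebo array 2. Eif3c stood at -0.15 (SE 0.91) and the cap-binding subunit gene Eif3d at -0.68 (SE 0.848). Eif3i stood at -0.70 (SE 0.843), Eif3k at -0.62 (SE 0.859), Eif3b at -0.26 (SE 0.903), Eif3m at -0.03 (SE 0.913) and Eif3l at 0.26 (SE 0.903). Eif3j1, whose product is loosely bound to the complex, had the lowest difference of the 12, -0.90 (SE 0.692), with both probes below 0. Eif3e scored 0.911, 1.53 and -0.499 in RU486 arrays 1 to 3, against -1.11, -0.431 and -0.409 in placebo arrays 1 to 3. RU486 array 3 alone lay inside the placebo range, and the difference was 1.3 (SE 0.643, adjusted p = 0.482). Eif3f stood at 0.97 (SE 0.774), and at 0.32 without RU486 array 1, and Eif3h at 0.07 (SE 0.912).

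Of the helicase genes, Eif4a1 stood at -0.41 (SE 0.889), Eif4a2 at 0.57 (SE 0.769) and Eif4a3, whose product works in the exon junction complex, at -0.85 (SE 0.808). The 2 probes of Eif4a2 gave 0.01 and 1.13. Eif4a3l1, a close copy of Eif4a3, stood at -0.65 (SE 0.853), and the files cannot say how far the probes of this pair are distinct. Eif4b (Entrez gene 75705, chromosome 15), which helps eIF4A to unwind leader structure, scored 1.75, 0.356 and -0.00467 in RU486 arrays 1 to 3, against -0.451, -1.18 and -0.472 in placebo arrays 1 to 3. RU486 array 1 stood far above the other 5, and the difference was 1.40 (SE 0.586, adjusted p = 0.406, unadjusted p = 0.075). The related cofactor gene Eif4h stood at -0.32 (SE 0.898) with overlapping groups, and the difference between these 2 genes was not tested.

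In the cap-binding family the gene of the main cap-binding protein, Eif4e, had probes that disagreed, at -1.07 and 0.67, and a mean of -0.20 (SE 0.699, adjusted p = 0.921). At the second probe RU486 array 2 had 2.03 and the other 5 arrays lay between -0.558 and -0.251. Eif4e2, which codes for a cap-binding repressor, had probes at 0.74 and -0.74, which cancelled. Eif4e1b, a form known from oocytes, had 1.44 and -0.49. Eif4e3 (Entrez gene 66892, chromosome 6), an atypical cap-binding member, scored -0.24, -0.48 and -1.56 in RU486 arrays 1 to 3, against 0.699, 1.31 and 0.272 in placebo arrays 1 to 3. It was the 1 gene of the 4 with groups apart, at -1.52 (SE 0.506, adjusted p = 0.39), beside 10.8% of all genes apart in that direction.

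The 3 genes of 4E binding proteins, which hold eIF4E back, had differences of both signs. Eif4ebp2 (Entrez gene 13688, chromosome 10) scored -1.19, -1.06 and -0.000165 in RU486 arrays 1 to 3, against 1.46, 0.344 and 0.447 in placebo arrays 1 to 3. RU486 array 3 was the nearest to the placebo arrays, and the difference was -1.50 (SE 0.519, adjusted p = 0.39). Eif4ebp1 scored 0.494, -0.812 and 1.6 in RU486 arrays, against 0.0783, -1.24 and -0.12 in placebo arrays. Its groups overlapped, with a difference of 0.85 (SE 0.807, adjusted p = 0.735; 0.27 without RU486 array 3), and RU486 array 2 lay below 2 of the placebo arrays. Eif4ebp3 stood at -0.11 (SE 0.911), and at 0.06 with arrays centred on their median. Eif4enif1, whose product carries eIF4E into the nucleus, stood at -1.07 (SE 0.74) with overlapping groups. Whether the 3 binding protein genes differ from each other in their response was not tested.

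Among scaffold genes, Eif4g2, which lacks the eIF4E site, stood at -0.38 (SE 0.892) and Eif4g3 at -0.29 (SE 0.591), whose 3 probes gave -0.39, 0.51 and -1.0. The 2 genes of eIF5A, a hypusine-bearing factor that also acts in elongation, were both below 0, with Eif5a at -0.82 (SE 0.817) and Eif5a2 at -1.08 (SE 0.737), which was -0.47 without RU486 array 1. Eif5b, which joins the ribosomal subunits, and Eif6, which keeps the large subunit from joining early, were both above 0, at 0.36 (SE 0.895) and 0.44 (SE 0.83). Groups overlapped in all 6, and the probes of Eif6 gave 0.97 and -0.09.

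**Figure D3:**
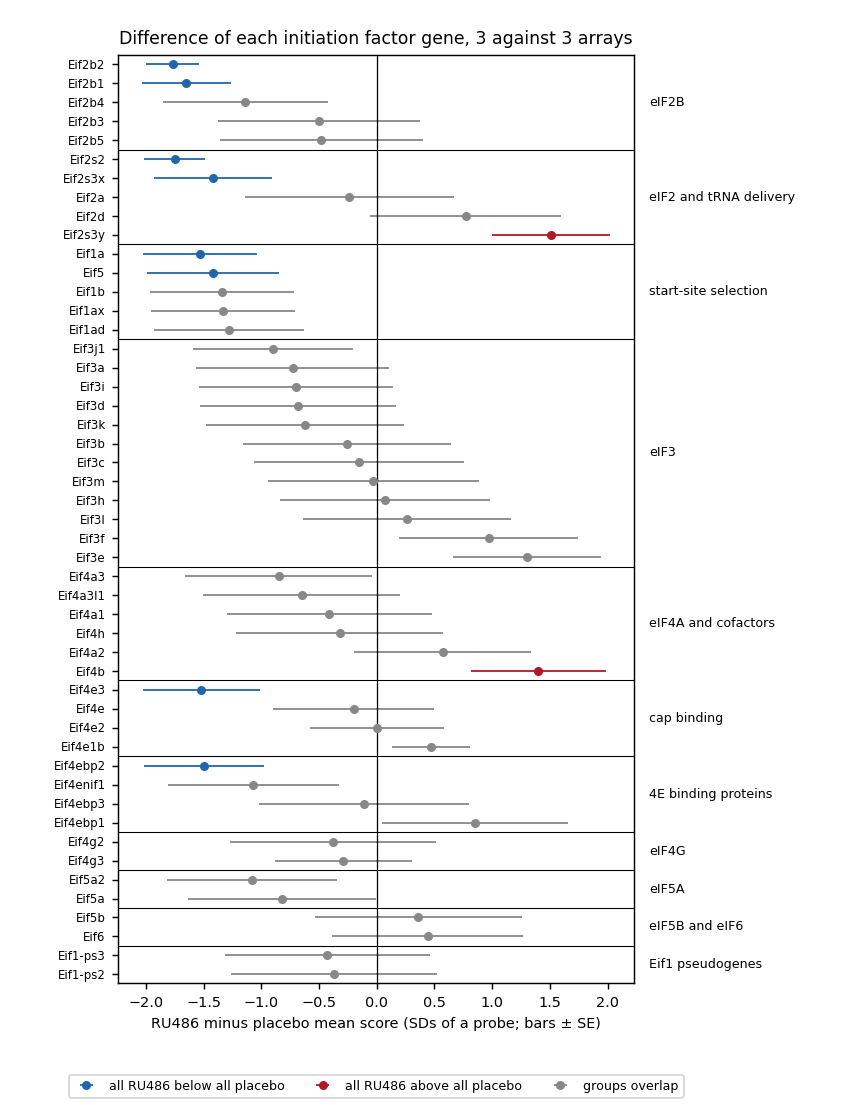
Difference in mean score, RU486 minus placebo, with its SE, for each of the 49 genes by role (SDs of a probe, 3 against 3 arrays), coloured by whether the groups overlap. The 8 genes below 0 with groups apart lie between -1.77 and -1.42, and the eIF3 genes spread from -0.9 to 1.3.

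Genes around the initiation factors were read from 7 lists, beside shares of all genes of 7.08% in the lower and 5.24% in the higher direction at the unadjusted threshold of 0.05, and the 10.8% with groups apart in the lower direction. In limma 0 genes of any list passed the adjusted p. Of the enzymes that phosphorylate or dephosphorylate eIF2 and their regulators, 0 of 12 reached that unadjusted p. Groups were apart in 1 of 12 (8.33%), a share below the 10.8% of all genes. That gene was Eif2ak3, the kinase gene of endoplasmic reticulum stress, at -1.12 (SE 0.72), named after its value was seen. Its groups nearly touched, at 0.11 in RU486 array 3 and 0.124 in placebo array 3, while RU486 array 1 stood at -1.71. Targets of the integrated stress response, which ATF4 drives when eIF2 is phosphorylated, had a median of -1.10 over 18 genes. Differences were below 0 in 12 of the 18 and above 0 in the rest. At that p 3 of 18 (16.7%) were lower and 0 higher, and 6 (33.3%) had groups apart. The 3 were Mthfd2 (-1.61, SE 0.429) and Shmt2 (-1.57, SE 0.469), both of mitochondrial folate metabolism, and the lipoprotein receptor gene Vldlr (-1.49, SE 0.527). Of 17 genes of mTORC1 and cap-binding control, 2 (11.8%) were lower and 0 higher, a share near that of all genes, with a median of -0.16. They were Rheb, the GTPase that switches mTORC1 on, at -1.64 (SE 0.4) and the S6 kinase gene Rps6kb2 at -1.53 (SE 0.496).

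Of 10 genes of termination, recycling and reinitiation, all differences were below 0, with a median of -1.11, and 3 (30%) were lower at that threshold. Pelo, which frees stalled ribosomes, scored -1.2, -0.95 and -0.526 in RU486 arrays 1 to 3, against 0.861, 0.895 and 0.918 in placebo arrays 1 to 3, a difference of -1.78 (SE 0.197, adjusted p = 0.198). Gspt2, a release factor gene, stood at -1.51 (SE 0.393) and N6amt1, whose product methylates a release factor, at -1.42 (SE 0.426). Of the 8 genes called in these lists, Pelo alone kept the call in all 13 other fits. With arrays centred on their median, the unadjusted p in limma was 0.0505 for Gspt2, 0.0612 for N6amt1, 0.0625 for Rps6kb2 and 0.0677 for Shmt2. Leaving out single arrays ended the call in 5 of 6 fits for Vldlr and Rps6kb2, 4 for Shmt2, 3 for Mthfd2 and N6amt1, 2 for Gspt2 and 1 for Rheb. Elongation factors (13 genes, median -0.57), poly(A) binding proteins and partners (7 genes, median -0.70) and the 2 hypusine enzymes (median -0.76) had 0 genes at that threshold. Groups were apart in 1 of these, Eef2k, the kinase gene of elongation factor eEF2, at -1.38 (SE 0.581), also named after its value was seen.

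A list of 10 proliferation genes, chosen with results of these data known and so no independent evidence, had groups apart and lower scores with RU486 in 10 of 10, all at an unadjusted p of 0.05. The replication gene Orc6 stood at -1.80 (SE 0.155), the spindle gene Nusap1 at -1.80 (SE 0.157), the helicase subunit gene Mcm5 at -1.76 (SE 0.249) and Ube2c, which helps degrade mitotic cyclins, at -1.74 (SE 0.283). The median was -1.72, and list means were -0.87, -0.65 and -1.06 in RU486 arrays 1 to 3, against 0.59, 0.66 and 1.33 in placebo arrays 1 to 3. Among cell type markers, list means were apart and lower with RU486 for neutrophils and red cells. For neutrophils 6 of 7 genes were below 0, 3 at an unadjusted p of 0.05, beside 7.08% of all genes. The 3 were Lcn2 (-1.76), S100a8 (-1.57) and S100a9 (-1.51). The neutrophil genes Camp (-1.17), Elane (-0.51) and Mpo (-0.32) missed that threshold, and Ly6g stood above 0, at 0.67. Groups overlapped in Camp, Elane, Mpo and Ly6g, so the list was not lower throughout. Neutrophil means were -0.63 to -0.16 in RU486 arrays and -0.08 to 1.27 in placebo arrays. For red cells 4 of 4 genes were below 0, and 0 reached that p. Red cell means were -0.53 to -0.50 in RU486 arrays, against 2.0, -0.41 and -0.05 in placebo arrays 1 to 3. Placebo array 1 alone thus stood far above the RU486 arrays. Means of the B and plasma cell list were also apart and lower, with 5 of 5 genes below 0 and 1 at that p. These means were -0.95 to -0.10 in RU486 arrays and 0.00 to 1.49 in placebo arrays. Medians of these 3 lists were -1.17, -1.03 and -1.31. Endothelial markers had a median of -1.11, with 7 of 8 below 0, but list means overlapped, at -1.17 to 0.28 in RU486 arrays and -0.28 to 1.04 in placebo arrays. List means also overlapped for granulosa, luteal and theca, epithelial, fibroblast, macrophage, T cell and skeletal muscle markers, with medians between -0.79 and 0.67. Which of these markers are at or near background cannot be read from scores. The part of proliferation or of these cell types in the initiation factor scores was not tested.

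**Figure D4:**
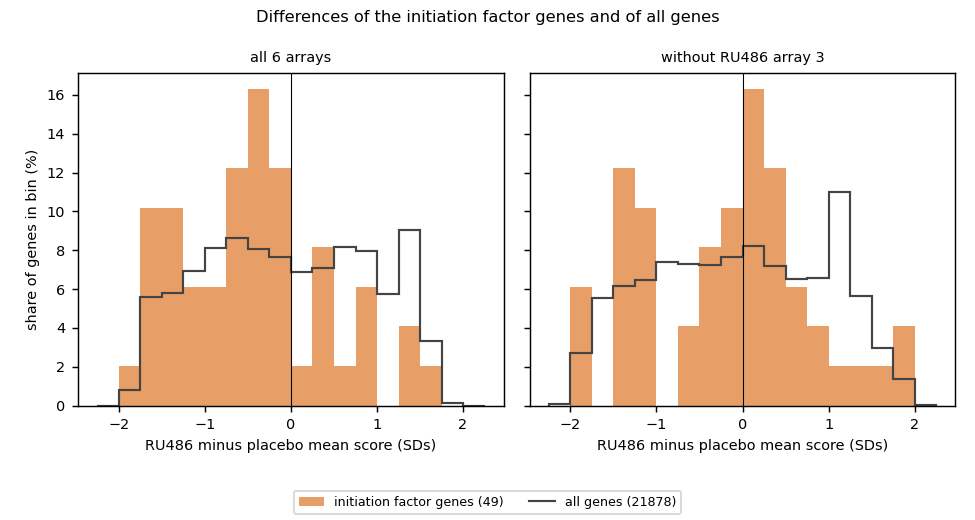
Share of genes (%) in each bin of the difference in mean score, RU486 minus placebo, for the 49 initiation factor genes (bars) and all 21878 genes (line), with all 6 arrays on the left and without RU486 array 3 on the right. With 6 arrays 75.5% of the bars' genes lie below 0, and without RU486 array 3 it is 51.0%, beside 50.5% of all genes.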

How the data were processed

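Tumour RNA was measured in 6 samples on single-colour (Cy3) arrays. The authors deposited a score for each of 37932 probes, which the values show to be centred on 0 and scaled to an SD of 1 across the arrays. Partek was used, per the submitters' processing notes, which give no version. For background correction, normalization, filters and log scale, the steps were not given in the sources used here. Signal over background is unknown, and the number of arrays limits the precision. Fold change and brightness cannot be recovered, so no filter on dim probes was possible. No 2 arrays were identical (0 pairs).

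Platform annotation gave 1 symbol for 24903 probes and none for 13029. Entrez IDs of 24627 matched the RefSeq table of GRCm38.p6, as did all 49 members. Scores were averaged per gene, and limma 3.58.1 (R 4.3.3) fitted treatment to all 6 arrays gene by gene, with the ordinary statistic on 4 residual degrees of freedom and two-sided p-values. For genes with 1 probe this statistic does not change with scaling. The fit was tested on simulated data. Groups came from sample titles. Deviations of same-numbered arrays from their group means had correlations of 0.254, 0.0539 and -0.272. Differently numbered arrays had -0.36 to 0.357, and so few values cannot show whether the numbers pair the samples. The main fit has no block. Alternatives were eBayes, centring, quantile normalization, other uses of probes, array weights, the block and leaving out arrays. Every member was named: those with groups apart or an unadjusted p under 0.05 with every array's score, the others by difference. From each pathway list, up to 4 genes at that p, those of smallest p, were named; Eif2ak3 and Eef2k fall outside this rule and were named after their values were seen. The members, roles and lists were chosen with earlier results of these data known. Promoter sequences are RefSeq's.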

Additional observations from a re-analysis of the deposited data

How the results depend on the processing

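In limma 0 initiation factor genes passed the adjusted p under every alternative run, eBayes moderation included. With eBayes 7 genes had an unadjusted p under 0.05, 6 lower (beside 6.75% of all genes) and 1 higher (beside 4.56%). Lower genes at that p numbered 7 as reported (14.3%, beside 7.08% of all genes). With arrays centred on their median they numbered 6 (12.2%, beside 6.69%), and with quantile normalization 8 (16.3%, beside 7.35%). With array weights they numbered 9 (18.4%, beside 13.3%), and with the replicate block 6 (12.2%, beside 5.1%). Higher genes numbered 1 as reported (beside 5.24% of all genes), 0 with centring (beside 3.43%) and 0 with quantile normalization (beside 3.12%). They numbered 0 with the replicate block (beside 1.92%), 0 without Eif2s3y and 2 with array weights (4.08%, beside 12.6% of all genes). With array weights Eif1a and Eif4ebp2 lost the call at that p, and with the block Eif1a, Eif2s3x, Eif4ebp2 and Eif2s3y did. Eif1b and Eif2b4 gained it in both. With eBayes Eif2s3x lost it. Leaving out single arrays gave 3 to 6 lower, beside 4.59% to 8.97% of all genes, and 0 to 1 higher, beside 1.66% to 10.5%. Groups apart then numbered 8 to 18 in the lower direction (16.3% to 36.7%), beside 12.4% to 22.3% of all genes. In the higher direction they numbered 2 to 6 (4.08% to 12.2%), beside 14.3% to 20.4%. With all 6 arrays and without Eif2s3y there was 1 in the higher direction. The median difference was -0.26 with centring, which moved the median of all genes to 0.11. It was -0.80 with array weights, beside -0.28 for all genes, and -0.89 to -0.08 leaving out single arrays, beside -0.36 to 0.20. Array weights ran from 0.342 for RU486 array 2 to 4.96 for placebo array 2.

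Of the 49 differences, 22 changed sign when some array was left out. Their ranges were Eif1-ps2 -0.96 to 0.37, Eif1-ps3 -1.04 to 0.18, Eif2a -0.83 to 0.35, Eif2b3 -1.11 to 0.12, Eif2b5 -1.26 to 0.01, Eif3b -0.86 to 0.61, Eif3c -0.66 to 0.60, Eif3h -0.40 to 0.85. The next were Eif3i -1.26 to 0.03, Eif3k -1.11 to 0.17, Eif3l -0.58 to 0.69, Eif3m -0.63 to 0.64, Eif4a1 -1.08 to 0.15, Eif4a2 -0.17 to 0.95, Eif4e -0.80 to 0.29. The others were Eif4e2 -0.34 to 0.53, Eif4ebp3 -0.71 to 0.57, Eif4g2 -1.02 to 0.15, Eif4g3 -0.70 to 0.16, Eif4h -0.86 to 0.33, Eif5b -0.31 to 0.99, Eif6 -0.30 to 0.92. The other 27 kept their sign, and 17 of them moved by over 1.5 times in some fit, such as Eif3a at -1.55 to -0.26. The sign also turned with centring for Eif3c (0.02), Eif3m (0.14), Eif4e2 (0.16) and Eif4ebp3 (0.06), and with quantile normalization for Eif3m (0.02) and Eif4e2 (0.07). With array weights it turned for Eif1-ps3 (0.14), Eif3l (-0.68) and Eif4ebp3 (0.86). Single probes turned it for Eif4e (0.67), Eif4e1b (-0.49), Eif4e2 (0.74, also its first probe), Eif4g3 (0.51) and Eif6 (-0.09). The cause was not tested. At the adjusted p there was no member call for the replicate block to change, and with the block 0 of all 21878 genes passed. Whether replicate numbers pair the samples is not known from the labels, and the correlations of same-numbered arrays are too few to settle it. The filter on dim probes could not be run on scores.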
